A study of Mus musculus with 8 samples.

Results

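The type 1 and natural killer (NK) programme was followed here through 10 genes in group 3 innate lymphoid cells (ILC3s) that carry the chemokine receptor CCR6. The genes were the T-box factors Tbx21 and Eomes, the NK receptor genes Ncr1, Klrb1c, Klrd1 and Klrk1, and the effector genes Gzma, Gzmb, Ifng and Ccl5. They were chosen by name for their roles, and all 10 were found among the 27179 rows of the deposited gene count table. RNA was sequenced from cells of the large intestine of untreated C57BL/6 mice, 1 library per mouse. The 4 Zbtb46-sufficient mice (replicates 1 to 4, titled wild type) were Zbtb46f/f, with both copies of Zbtb46 floxed and no Cre. The 4 Zbtb46-deficient mice (replicates 5 to 8) were Zbtb46f/f with a Cre recombinase active in ILC3s. The Cre was present in the deficient group alone, so its presence and the loss of Zbtb46 cannot be told apart. Ages were not given in the labels. Cells were sorted as CD45-dim, CD90-high, CD127+ and CCR6+, and cells with CD3, CD5, NK1.1, γδ T cell receptor, CD11b, CD11c or B220 on the surface were left out.

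ILC3s defend mucosal surfaces through interleukin 22 and interleukin 17, while NK cells and ILC1s run the type 1 programme of interferon gamma, granzymes and perforin. T-bet, the product of Tbx21, drives that programme, and Eomes adds the features of mature NK cells. In the mouse gut, T-bet and the receptor NKp46 (Ncr1) are best known from the CCR6-negative branch of ILC3s, which can take on ILC1 features, while the CCR6+ branch resembles lymphoid tissue inducer cells. NK1.1, one of the markers used to leave cells out of the sort, is the product of the member Klrb1c in this strain.

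Values are normalised read counts in CPM, which divide a gene's reads by the library's total after scaling for library composition. Library totals ran from 25328231 to 33760743 counts, and a count of 3, taken as the limit that a count of 0 allows, corresponds to 0.0856 to 0.124 CPM. Such limits cover counting error alone, since PCR copies of a molecule cannot be counted apart here. Zbtb46, the deleted gene, was at 8.02, 48.8, 88.9 and 26.6 CPM in the sufficient and at 4.82, 0.532, 3.19 and 0.125 CPM in the deficient libraries, with no overlap. Its log2 fold was -4.31 (standard error, SE, 1.42), and the adjusted p was 0.885 in edgeR and 0.00634 in DESeq2. Genes of the sorted population were present in every library, with 13570 to 25510 CPM of Il22, 764 to 3331 CPM of Il23r, 1346 to 2136 CPM of Il7r and 72.8 to 340 CPM of Ccr6. Kit, Thy1, Ptprc and Il1r1 were also counted in every library. Ptprc, the gene of CD45, was higher without overlap (524 ± 177 against 866 ± 87.1 CPM, edgeR's adjusted p 0.983), and Ltb, a lymphotoxin chain, was lower without overlap (133 ± 63.5 against 49.0 ± 9.81 CPM, edgeR's adjusted p 0.772). Without overlap, 2.26% of all tested genes were higher and 2.1% lower. Cd4 stood at 60.7 ± 31.2 against 29.0 ± 16.3 CPM. Of the genes for the excluded surface markers, Cd3e, Cd5, Itgax and Trdc stayed at or below 0.501 CPM, and Itgam at or below 0.0827 CPM outside deficient replicate 7, which had 6.04 CPM. Cd3d reached 15.8 CPM and Cd3g 60.9 CPM. Sufficient replicate 1 and deficient replicate 6 stood apart from the other libraries on the first 2 principal components, at -166 and 188 on the first against -25.7 to 14.7 elsewhere.

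The 10 genes were detected unevenly. Klrk1 and Klrb1c were present in all 8 libraries and Ncr1 in 7, while Eomes had 5 counts in all 8 libraries together. Together Ncr1, Klrk1 and Klrb1c made up 78.9% to 99.7% of the summed CPM of the 10 genes. Tbx21, Klrd1, Gzma and Ifng exceeded 1 CPM in no more than 2 libraries each. Of the 9 members that reached 10 CPM in any library, 5 (Tbx21, Klrd1, Gzma, Ifng and Ccl5) had at least 50% of their summed CPM in a single library. Among all 9880 genes that reached 10 CPM in a library, 23.2% did so. For 7 of the 9, at least 1 library had 3 counts or fewer, which held for 47.4% of the 9880 genes. In a bulk sample, fewer cells that express a gene and less RNA of it per cell cannot be told apart.

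**Figure D1:**
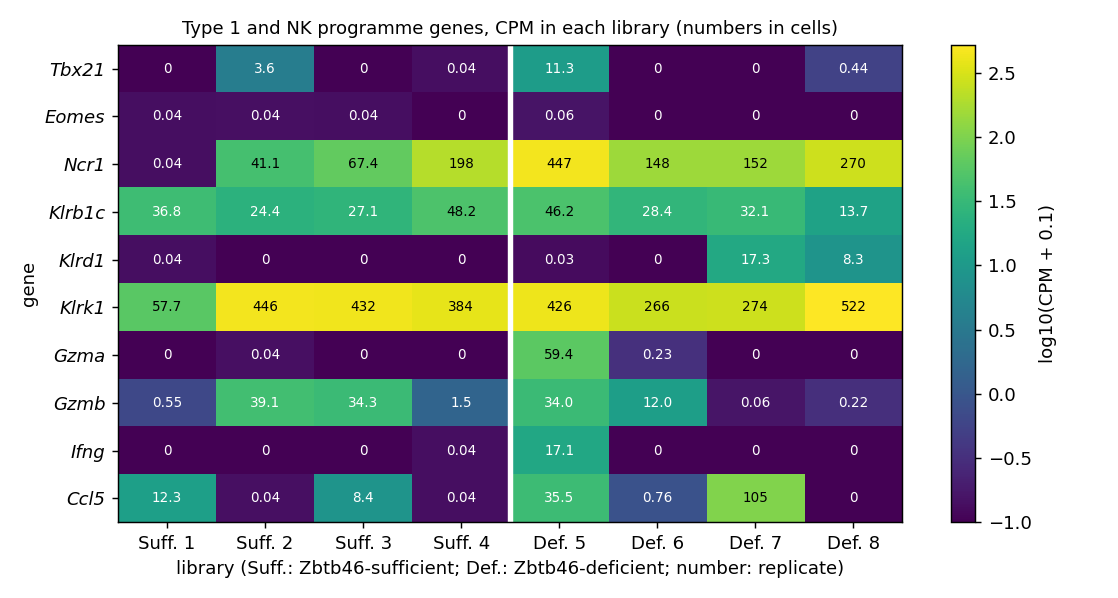
CPM of the 10 genes (rows) in the 4 sufficient and 4 deficient libraries (columns); the colour is log10(CPM + 0.1), cells carry the CPM, and a 0 stands for no counts. Klrk1 and Klrb1c are filled in across all columns, Ncr1 in all but sufficient replicate 1, and Gzma and Ifng are above 1 CPM in deficient replicate 5 alone.

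No member passed the comparison of deficient with sufficient ILC3s in edgeR. Zbtb46, the deleted gene, did not pass there either (edgeR's adjusted p 0.885), so a gene that did not pass may still differ. The filter on low counts, which asks for enough counts in at least as many libraries as a group holds, was passed by 5 members, Ncr1, Klrb1c, Klrk1, Gzmb and Ccl5. Of these, 0 had an adjusted p under 0.05 in edgeR's quasi-likelihood test with Benjamini-Hochberg adjustment over all 8878 tested genes, of which 0.0% were called. Likewise 0 of the 5 had an unadjusted p under 0.05, against 4.1% of tested genes, and in 0 of the 5 did the groups not overlap, against 4.36%. DESeq2 called 2.93% of 10868 genes. It gave an adjusted p for the members Ncr1, Klrb1c, Klrd1, Klrk1, Gzmb and Ccl5, and of these it called 1, Klrd1, which edgeR's filter had removed. Among the tested members 3 had fitted values above 0 and 2 below, where 50.9% of tested genes were above 0.

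Among the regulators, Tbx21 (Entrez ID 57765, chromosome 11, positions 97098007 to 97115331, all coordinates being RefSeq's on GRCm38.p6) had 0, 3.64, 0 and 0.0393 CPM in sufficient replicates 1 to 4. It had 11.3, 0, 0 and 0.438 CPM in deficient replicates 5 to 8. Only 3 libraries exceeded 3 counts of Tbx21, with 88, 396 and 14 counts in replicates 2, 5 and 8, and neither group was uniformly high. The difference in group means, 2.02 CPM, turned to -0.774 CPM without deficient replicate 5. Eomes (Entrez ID 13813, chromosome 9, 118478186 to 118486132) had at most 2 counts in any library, below the limit in all 8, so a level was not detectable at this depth. The span of Eomes overlaps the gene model Gm33408.

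Of 16 other transcriptional regulators listed, 11 had more than 3 counts in all 8 libraries, 13 were tested and 0 passed in either direction, with 6 fitted values higher and 7 lower and a median log2 fold of -0.03 against 0.02 over all tested genes. Stat4, which relays interleukin 12 signals toward interferon gamma, had 744, 839, 1065 and 1067 CPM in sufficient replicates 1 to 4 and 413, 741, 361 and 538 CPM in deficient replicates 5 to 8. All 4 deficient values lay below the sufficient ones, with a narrow margin between replicates 6 and 1. Its log2 fold was -0.86 (SE 0.26, edgeR's adjusted p 0.772). Over all tested genes, 2.1% were lower without overlap. Foxo1, which restrains effector differentiation in lymphocytes, had 359 ± 112 CPM (SD, n = 4) in sufficient and 573 ± 52.5 CPM in deficient ILC3s, with an adjusted p of 0.983 in edgeR. Irf1, an interferon-induced factor, had 86.6 ± 18.8 against 127 ± 29.0 CPM, and Id2, required by all innate lymphoid cells, 4684 ± 831 against 3968 ± 841 CPM (edgeR's adjusted p 0.9999 for both).

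Of the receptor genes, Ncr1 lies on chromosome 7, and Klrb1c, Klrd1 and Klrk1 lie in the NK gene complex on chromosome 6. For the 3 receptor genes with most counts, sequence before the gene is printed below from RefSeq's GRCm38.p6 promoter table, to show where the letters TGTGGT, the core of the motif bound by RUNX factors such as Runx3, occur. Capitals mark TGTGGT or its reverse complement ACCACA, and each run is 5′ to 3′ on the gene's strand. The table gives 250 bases before a transcript start, and for Klrk1 that start lies 39 bases inside the gene span, so only the 211 bases before the span are shown.
Ncr1 (chr7:4337465-4337714, plus strand): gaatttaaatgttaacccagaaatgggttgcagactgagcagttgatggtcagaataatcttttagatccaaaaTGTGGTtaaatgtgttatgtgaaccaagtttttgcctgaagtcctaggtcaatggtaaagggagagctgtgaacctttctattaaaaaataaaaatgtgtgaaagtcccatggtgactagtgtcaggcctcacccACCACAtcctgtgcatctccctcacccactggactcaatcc
Klrk1 (chr6:129623904-129624114, minus strand): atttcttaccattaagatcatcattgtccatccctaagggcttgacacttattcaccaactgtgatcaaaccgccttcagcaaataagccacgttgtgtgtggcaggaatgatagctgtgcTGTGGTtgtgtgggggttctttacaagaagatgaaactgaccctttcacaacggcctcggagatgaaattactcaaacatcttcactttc
Klrb1c (chr6:128788642-128788891, minus strand): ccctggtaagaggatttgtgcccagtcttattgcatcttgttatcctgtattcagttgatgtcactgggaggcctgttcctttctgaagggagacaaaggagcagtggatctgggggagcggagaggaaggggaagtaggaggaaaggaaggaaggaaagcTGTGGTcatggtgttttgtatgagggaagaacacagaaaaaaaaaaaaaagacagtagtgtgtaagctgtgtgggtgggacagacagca
The matches begin 176 and 41 bases before the span of Ncr1, 90 bases before that of Klrk1 and 89 bases before that of Klrb1c. The table's 250-base windows were matched for 8 members, and 5 of them (Ncr1, Klrk1, Klrb1c, Gzma and Gzmb) held these letters on either strand. Among such windows of 27025 genes, 14.2% did. The T-box letters GGTGTGA, whose GGT can also end a RUNX match, were searched on both strands and were in 0 of the 8 and in 3.31% of genes. These are matches of letters, and no binding was measured. Runx3 itself had 112 ± 43.1 CPM in the sufficient group and 99.2 ± 45.4 CPM in the deficient group.

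Ncr1 (Entrez ID 17086, chromosome 7, 4337715 to 4345184) encodes NKp46, an activating receptor of NK cells, ILC1s and some ILC3s. It had 0.0391, 41.1, 67.4 and 198 CPM in sufficient replicates 1 to 4 and 447, 148, 152 and 270 CPM in deficient replicates 5 to 8. The lowest 3 libraries were all sufficient, but sufficient replicate 4 lay above deficient replicates 6 and 7, so the groups overlapped. Means were 76.7 ± 85.6 CPM in the sufficient group and 254 ± 141 CPM in the deficient group (SD, n = 4). The fitted fold was 3.32, a log2 fold of 1.73 (SE 1.25, edgeR's adjusted p 0.9999). An interval of 2 standard errors runs from -0.77 to 4.23. Sufficient replicate 1 had a single count of Ncr1. Without it the log2 fold was 1.31 (SE 0.62, edgeR's adjusted p 0.991), and without sufficient replicate 4 it was 2.81. Without both sufficient replicate 1 and deficient replicate 6 the log2 fold was 1.50, with an unadjusted p of 0.0486 in edgeR and an adjusted p of 0.847. These 2 libraries were the lowest of their groups for Ncr1. In that fit 540 of 9257 tested genes had an unadjusted p under 0.05. Over all 8 libraries the unadjusted p of Ncr1 was 0.196 in edgeR.

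Klrk1 (Entrez ID 27007, chromosome 6, 129610323 to 129623903) encodes NKG2D, which recognises stress-induced ligands. It had 57.7, 446, 432 and 384 CPM in sufficient replicates 1 to 4 and 426, 266, 274 and 522 CPM in deficient replicates 5 to 8. Sufficient replicate 1 was far below the rest, and the other 7 libraries overlapped fully. The log2 fold was 0.17 (SE 0.53, edgeR's adjusted p 0.9999), and 2 standard errors span -0.88 to 1.23. Without sufficient replicate 1 the log2 fold changed sign to -0.18 (SE 0.29). Of all tested genes 14.8% were lowest in replicate 1 alone, and the other libraries held the lowest value of 7.16% to 15.8%. In replicate 1 stromal and endothelial markers summed to 772 CPM against 14.0 to 417 CPM elsewhere, most of it from 687 CPM of the matrix gene Dcn. Their part in the low values was not tested.

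Klrb1c (Entrez ID 17059, chromosome 6, 128778485 to 128788641) encodes NK1.1, the marker that cells had to lack on their surface to enter the sort. Its transcript was nevertheless counted in every library, at 36.8, 24.4, 27.1 and 48.2 CPM in the sufficient group and 46.2, 28.4, 32.1 and 13.7 CPM in the deficient group. It had the smallest SD relative to its mean of the 10 members, 0.356 over 8 libraries, with the lowest and highest values in deficient replicate 8 and sufficient replicate 4. The log2 fold was -0.18 (SE 0.72, edgeR's adjusted p 0.9999), and 2 standard errors span -1.61 to 1.25. It turned positive, at 0.03 or 0.06, without sufficient replicate 4 or deficient replicate 8. Klrb1c has close relatives, and 18.1% of the 50-base words of its longest coding transcript in GENCODE M21 also occur in transcripts of other genes, with 13.9% in the gene model Gm44511 and 2.91% in Klrb1a. How reads shared by such genes were counted is not stated in these sources. Ncr1, Klrk1, Klrd1, Gzma, Gzmb and Ccl5 shared 0.0% of such words with other genes.

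Klrd1 (Entrez ID 16643, chromosome 6, 129588092 to 129598775) encodes CD94, the partner chain of the NKG2 receptors encoded by Klrc1 and Klrc2. It had 1, 0, 0 and 0 counts in sufficient replicates 1 to 4 and 1, 0, 554 and 264 counts in deficient replicates 5 to 8. The last 2 of these were 17.3 and 8.26 CPM. Only deficient libraries held it above the limit, but 2 of those 4 had at most 1 count and so overlapped the sufficient ones. DESeq2 gave an adjusted p of 0.0475, with 1.78% of its tested genes called higher, while edgeR without a filter gave an adjusted p of 0.431. Klrd1 met DESeq2's minimum of 10 counts only through deficient replicates 7 and 8, so this call rests on the libraries where it was high. The difference in group means was 6.40 CPM, and 2.75 CPM without deficient replicate 7. Klrc1, the gene of the CD94 partner NKG2A, was at 10.9, 0, 5.51 and 0 CPM in sufficient replicates 1 to 4 and 22.5, 0.0380, 0.0313 and 14.8 CPM in deficient replicates 5 to 8. Only in deficient replicate 8 were both chains above 1 CPM.

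The wider family of NK receptors and adaptors was present in part. Of 34 listed genes 15 were tested and 0 passed in either direction, with 9 fitted values higher and 6 lower and a median log2 fold of 0.01. A further 13 had at most 3 counts in every library, among them 6 Ly49 genes (Klra1, Klra3, Klra4, Klra7, Klra8 and Klra9), the NK cell integrin gene Itga2 and the T cell receptor zeta chain gene Cd247. The adaptors that activating NK receptors signal through were counted in every library, apart from Cd247. Fcer1g, the Fc receptor gamma chain, had 3451 ± 804 against 3225 ± 822 CPM, Hcst, which encodes DAP10, 393 ± 127 against 334 ± 77.7 CPM, and Tyrobp, which encodes DAP12, 141 ± 96.0 against 141 ± 71.7 CPM.

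Klrb1b, an inhibitory relative of Klrb1c, had 812, 779, 791 and 780 CPM in sufficient replicates 1 to 4 and 1207, 840, 1026 and 876 CPM in deficient replicates 5 to 8, so all deficient values lay above the sufficient ones. Its log2 fold was 0.32 (SE 0.18), and 29.0% of its 50-base words are shared with other genes, most with Gm44511. Tigit, an inhibitory receptor for nectin family ligands, had 0.196, 15.8, 9.73 and 13.3 CPM in sufficient replicates 1 to 4 and 31.0, 20.8, 55.8 and 44.1 CPM in deficient replicates 5 to 8, again without overlap. Its log2 fold was 1.96 (SE 1.18). Both had an adjusted p of 0.9999 in edgeR, and 2.26% of all tested genes were higher without overlap. Klrb1f had 85.7 ± 41.3 against 54.3 ± 23.1 CPM. Cd160, at 0.0391 CPM, and Klri2, at 11.0 CPM, were lowest in sufficient replicate 1, as Ncr1 and Klrk1 were. The lowest values of both elsewhere were 25.1 and 57.3 CPM. Of the 15 tested genes of the list, 4 (Klri2, Cd244a, Cd160 and Tigit) were lowest in sufficient replicate 1 alone. Another 4 (Fcgr3, Fcer1g, Tyrobp and Hcst) were lowest in deficient replicate 6 alone. Over all tested genes these shares were 14.8% for replicate 1 and 15.8% for replicate 6.

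**Figure D2:**
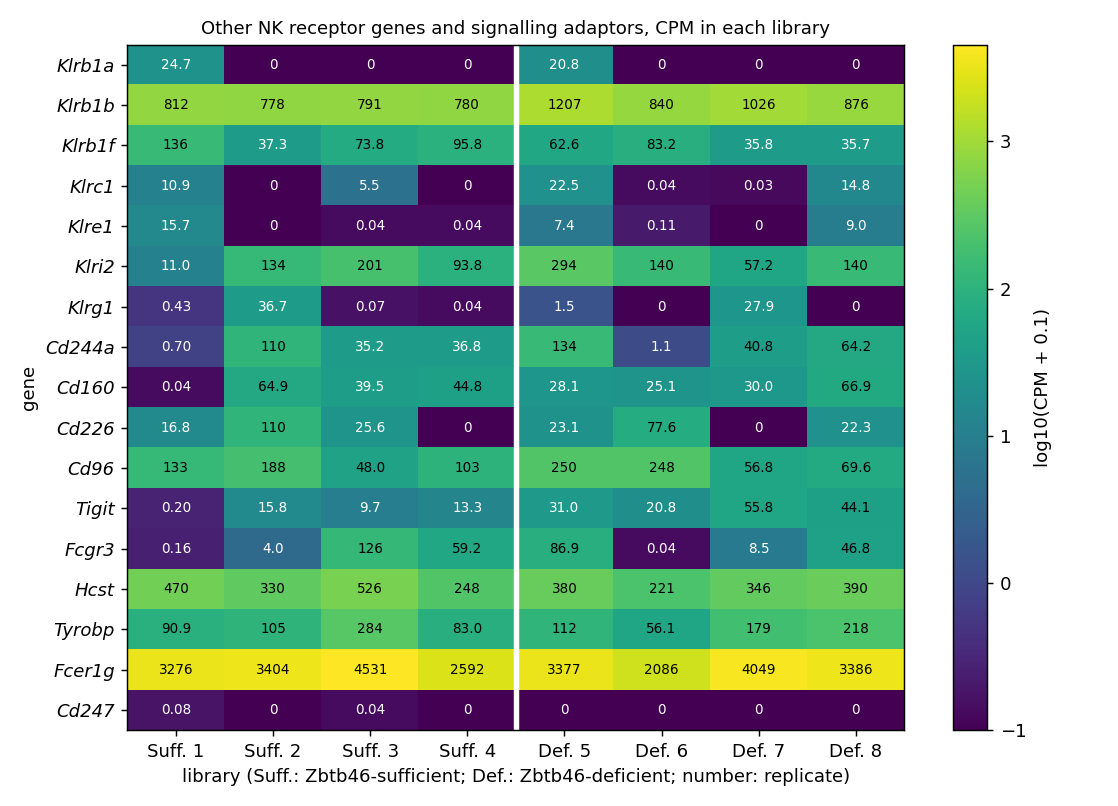
CPM of 17 other NK receptor and adaptor genes (rows) in each library (columns), with colour as log10(CPM + 0.1) and CPM in the cells. Klrb1b, Fcer1g, Hcst and Tyrobp are present in all 8 libraries, Tigit is higher in each deficient than in any sufficient library, and Cd247 is at or near 0 throughout.

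Of the cytotoxic effectors, Gzma was nearly confined to 1 library and Gzmb exceeded 3 counts in 7 of the 8 libraries. Gzma (Entrez ID 14938, chromosome 13, 113093824 to 113100981), a granule protease, had 2081 counts or 59.4 CPM in deficient replicate 5. It had 6 counts in deficient replicate 6 and at most 1 count in each of the other 6 libraries. Replicate 5 thus held 99.5% of its summed CPM, and without it the difference in group means fell from 14.9 to 0.0656 CPM. The span of Gzma overlaps that of Cdc20b, which had 0 counts in all 8 libraries.

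Gzmb (Entrez ID 14939, chromosome 14, 56258836 to 56262334), the granzyme that cleaves caspases, had 0.548, 39.1, 34.3 and 1.49 CPM in sufficient replicates 1 to 4 and 34.0, 12.0, 0.0626 and 0.219 CPM in deficient replicates 5 to 8. High and low libraries occurred in both groups. The log2 fold was -0.70 (SE 1.90, edgeR's adjusted p 0.9999), and it moved to -2.20 without deficient replicate 5 and to -0.06 without sufficient replicate 2. Replicate 2, the highest library for Gzmb, also held 1282 CPM of epithelial markers, against at most 20.2 CPM elsewhere. Replicates 3 and 5, at 34.3 and 34.0 CPM of Gzmb, held 1.48 and 9.87 CPM of those markers. Their part in the Gzmb values was not tested.

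Perforin, which granzymes need to enter target cells, was not seen: Prf1 had 0 counts in all 8 libraries. Of 19 other granule and death-ligand genes, 8 were tested and 0 passed in either direction, with 6 fitted values higher and 2 lower and a median log2 fold of 0.23. Gzmk and Gzmg also had 0 counts in every library, and Fasl at most 3. Gzmc, a granzyme gene with near relatives, had 28.4 ± 18.2 CPM in the sufficient group and 10.4 ± 10.1 CPM in the deficient group. The granule membrane gene Nkg7 was at 56.6, 34.0 and 19.0 CPM in replicates 2, 3 and 7 and at most 0.0571 CPM in the others. Genes with broader roles were compared as well. Srgn, the proteoglycan core of granules, had 3063 ± 521 against 3509 ± 1181 CPM. Ctsc, the protease that activates granzymes, had 136 ± 102 against 200 ± 92.3 CPM, and Stx11, of the vesicle fusion machinery, 421 ± 75.8 against 542 ± 382 CPM.

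Ifng (Entrez ID 15978, chromosome 10, 118441046 to 118445894), the gene of the type 1 cytokine interferon gamma, had 600 counts or 17.1 CPM in deficient replicate 5 and 1 count over the other 7 libraries. All 4 sufficient libraries and deficient replicates 6 to 8 were below the limit of 3 counts. Without replicate 5 the difference in group means went from 4.27 to -0.00983 CPM. For Gzma, Ifng and Tbx21, DESeq2 gave no p, as it does where a single count is extreme, and edgeR without a filter gave adjusted p values of 0.431, 0.442 and 0.870. Of the transcript of Ifng, 13.5% of 50-base words are shared with the gene model Gm49751.

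Deficient replicate 5 was the highest library for 4 of the 9 members that reached 10 CPM, namely Tbx21, Ncr1, Gzma and Ifng, and 11.8% of all 9880 such genes were highest there. The share over the 8 libraries ran from 8.59% to 18.2%. Replicate 5 also held the highest summed CPM of the 10 genes, 1077 CPM, against 455 to 815 CPM in the other deficient and 108 to 632 CPM in the sufficient libraries. In the same library the 10 T cell markers summed to 250 CPM, against 73.4 to 204 CPM elsewhere, with 204 and 192 CPM in replicates 2 and 3. Trbc2 had 94.1 CPM in replicate 5, Trac 54.8 CPM, Cd3g 54.4 CPM, Trbc1 30.8 CPM and Cd3d 15.8 CPM. Trac was at most 22.6 CPM in the other libraries. Trbc2 was higher in replicate 2 (106 CPM) and Cd3g in replicate 3 (60.9 CPM), and Cd3d was at 15.4 CPM in replicate 2. Trbc1 was lower than in replicate 5 only in replicate 1, at 11.5 CPM. Of the other listed markers, Cd3e was at 0.0285 CPM in replicate 5, and Cd5, Cd8a, Cd8b1 and Trdc were at 0. Across the list 2 markers, Cd8a and Cd8b1, were at 0 in every library. Of the 8 macrophage and neutrophil markers, the neutrophil genes S100a8 and S100a9 stood at 238 and 94.1 CPM there. Adgre1 was at 2.65 CPM and Lyz2 at 0.114 CPM, and Csf1r, Cd68, C1qa and C1qb were at 0. The part of these markers in the values of replicate 5 was not tested.

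Ccl5 (Entrez ID 20304, chromosome 11, 83525778 to 83530518), a chemokine of activated T and NK cells, was present in libraries of both groups. It had 12.3, 0.0414, 8.43 and 0.0393 CPM in sufficient replicates 1 to 4 and 35.5, 0.760, 105 and 0 CPM in deficient replicates 5 to 8. The 2 highest libraries were deficient and the library without a count was deficient as well. The log2 fold was 2.76 (SE 2.32, edgeR's adjusted p 0.9999), and it dropped to 1.21 without deficient replicate 7. The macrophage and neutrophil sum was 335 CPM in replicate 5 and 739 CPM in replicate 7, against 0.993 to 44.0 CPM in the other 6 libraries. In replicate 7 most of it came from 316 CPM of S100a8 and 359 CPM of S100a9. Their part in the Ccl5 values was not tested. The span of Ccl5 overlaps the gene model Gm32650.

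**Figure D3:**
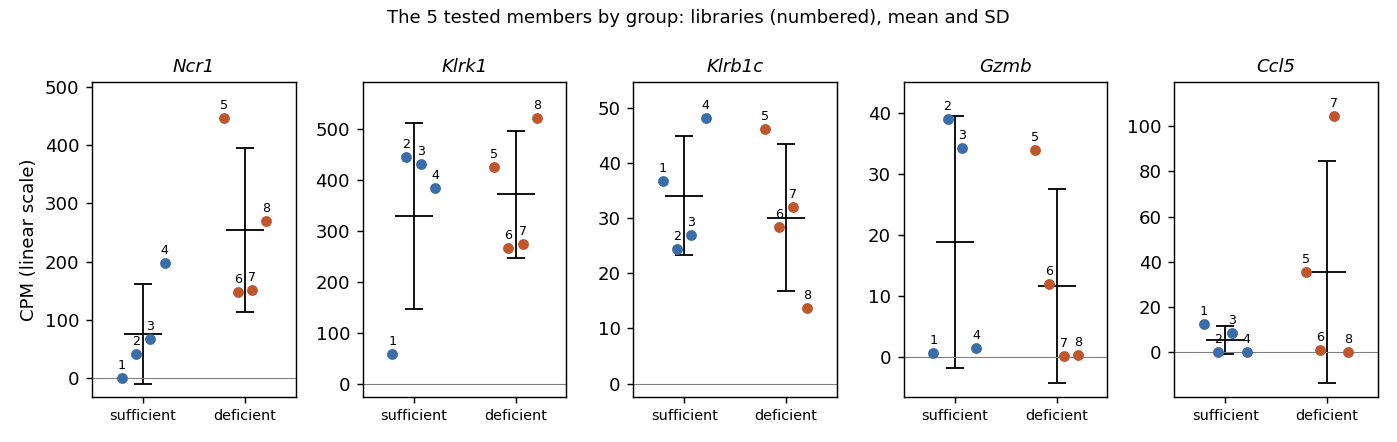
CPM on a linear scale of the 5 members that were tested, by group; points are libraries with their replicate number, and bars are the mean and SD of 4 libraries. The groups overlap in every panel, sufficient replicate 1 is lowest for Ncr1 and Klrk1, and deficient replicate 5 is highest for Ncr1 at 447 CPM.

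Per kilobase of exon, the mean level over all 8 libraries was highest for Ncr1 at 107 and Klrk1 at 102 CPM per kilobase, followed by Ccl5 at 38.0, Klrb1c at 12.2 and Gzmb at 10.6 CPM per kilobase. Gzma at 7.41, Klrd1 at 3.32, Ifng at 1.78 and Tbx21 at 0.775 CPM per kilobase came next, and Eomes was last at 0.00588. The order differed between the groups. In the sufficient group Klrk1 was first at 96.0 and Ncr1 next at 49.8 CPM per kilobase, followed by Gzmb at 13.1, Klrb1c at 13.0 and Ccl5 at 9.79. In the deficient group Ncr1 was first at 165 and Klrk1 next at 108 CPM per kilobase, followed by Ccl5 at 66.2, Gzma at 14.8, Klrb1c at 11.4 and Gzmb at 8.06. In all 9 pairs of neighbours the ranges over libraries overlapped, both over all 8 libraries and within each group. On the same scale Il22 stood at 16510 CPM per kilobase.

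Of 11 listed receptors for the cytokines that feed the programme, 7 had more than 3 counts in all 8 libraries, 10 were tested and 0 passed in either direction, with 7 fitted values higher and 3 lower and a median log2 fold of 0.25. Il2rb and Il2rg, the shared chains of the interleukin 15 receptor, had 242 ± 58.4 against 198 ± 31.8 CPM and 2516 ± 605 against 1873 ± 895 CPM. Il15ra, its alpha chain, had 70.7, 0, 1.55 and 0 CPM in sufficient replicates 1 to 4 and 1.31, 68.7, 44.4 and 32.9 CPM in deficient replicates 5 to 8, with high and low libraries in both groups. The interleukin 18 receptor gene Il18r1 had 199 ± 40.6 against 157 ± 53.1 CPM. Il27ra had 7.65 ± 1.76 against 22.0 ± 14.3 CPM. The interleukin 12 receptor chain Il12rb2, which is typical of type 1 cells, exceeded 1 CPM in replicates 3, 5 and 6 alone, at 6.02, 9.50 and 4.03 CPM. Of 6 listed chemokine and chemokine receptor genes, Cxcr6 was the only one tested, with 2409 ± 566 against 1708 ± 570 CPM and an adjusted p of 0.9999 in edgeR.

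Genes induced by interferon gamma did not pass either. Of 14 listed, 12 were tested, 0 passed in either direction, and 8 fitted values were higher and 4 lower, with a median log2 fold of 0.39. The guanylate-binding protein gene Gbp2 had 30.9 ± 16.3 against 108 ± 79.7 CPM and the immunoproteasome gene Psmb9 35.0 ± 26.0 against 121 ± 54.1 CPM, while Iigp1 had 165 ± 107 against 72.2 ± 22.9 CPM. Socs1, an inhibitor of cytokine signalling, had 43.5, 25.7, 25.9 and 33.9 CPM in sufficient replicates 1 to 4 and 24.6, 12.6, 12.2 and 12.1 CPM in deficient replicates 5 to 8, without overlap, by a margin of about 1 CPM, and its log2 fold was -1.07 (SE 0.82). The adjusted p of these 4 genes was 0.9999 in edgeR, and 2.1% of all tested genes were lower without overlap. Of the 12 tested targets, 1, Psmb9, was highest of all 8 libraries in deficient replicate 5, the library with Ifng reads, at 158 CPM. Of the 9880 genes that reached 10 CPM in a library, 11.8% were highest in replicate 5. Psmb9 and Socs1 (24.6 CPM) were the 2 targets that were highest there among the deficient libraries. The share of all genes highest there among the deficient libraries was not computed.

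**Figure D4:**
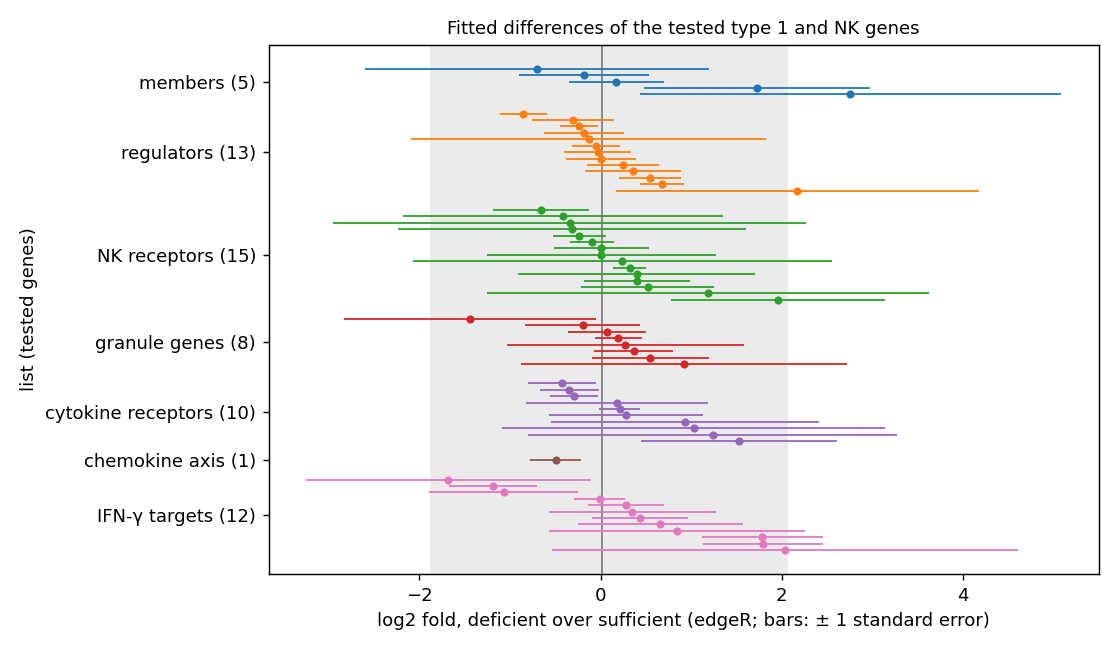
Fitted log2 folds (deficient over sufficient) of the tested members and the tested genes of 6 related lists, with bars of 1 standard error; the grey band spans the 5th to 95th percentile of all tested genes, from -1.87 to 2.06, and the grey line is their median of 0.02. Ccl5 at 2.76 and Prdm1 at 2.17 are the points to the right of the band, and both have wide bars.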

How the data were processed

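Libraries came from a SMARTer low-input kit (Clontech), per the labels' protocols. Tools named in the submitters' processing notes are STAR 2.3.0 and CASAVA 1.8.2, with the build mm10. How reads were counted, on which annotation and with what use of strand, is not stated in these sources. The authors deposited whole-number read counts per Entrez gene ID, without normalization. Symbols came from the RefSeq gene table of GRCm38.p6, which matched 25275 of 27179 rows, and the other rows held 0.303% of counts. The driver of the Cre is not reported here.

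Counts were fitted with edgeR 4.0.16 (R 4.3.3): TMM factors, filterByExpr by group, the quasi-likelihood F test, and Benjamini-Hochberg adjustment over 8878 genes at 0.05. CPM values use the same scaled totals. Standard errors were derived from the F statistic. The script was run on simulated counts, and the outcome is not given here. Labels do not name a batch, so p-values measure the spread between mice and library preparations together. Alternatives were RLE or no scaling factors, DESeq2 1.42.0 (genes with at least 10 counts), limma-voom with sample quality weights (limma 3.58.1), other filters (none, or at least 5 CPM in at least 4 libraries), and libraries left out.

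The members, gene lists and tests were chosen with earlier results of these data known. Named were Zbtb46, all members, and from each of the 6 related lists the 4 tested genes with the smallest p and those whose groups did not overlap, plus the genes of the sorted population and of the excluded surface markers. Other genes (such as Runx3, Fcer1g, Nkg7, Prf1, Il15ra and Il12rb2) were named after their values were seen. Summed markers were 73.4 to 250 CPM for T cells, 0.993 to 739 for macrophages and neutrophils and 8.92 to 136 for B and plasma cells. They were 8.23 to 95.4 CPM for ILC2s, 0 to 66.2 for mast cells and 14.0 to 772 for stroma. For epithelium they were 0.751 to 1282 CPM, with 1282 CPM in replicate 2 and at most 20.2 CPM elsewhere.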

Additional observations from a re-analysis of the deposited data

Results flagged for a closer look

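In each group of 4, the highest or lowest value was compared with its nearest neighbour, and the distance was taken relative to the whole range (Dixon's test, critical value 0.829). Of 89 groups with more than 3 counts in a library, 13 exceeded it. A rate of 1 in 20 would give 4.45, but that rate holds for independent values with a normal distribution. CPM values are skewed and often 0 here, so the 13 cannot be read as an excess over chance. Tbx21 stood out in sufficient replicate 2 (3.64 CPM against 0 to 0.0393) and in deficient replicate 5 (11.3 CPM against 0 to 0.438). Gzma and Ifng stood out in deficient replicate 5, at 59.4 CPM against 0 to 0.228 and at 17.1 CPM against 0. Klrk1 was low in sufficient replicate 1, at 57.7 CPM against 384 to 446, as was Il2rg, at 1611 CPM against 2757 to 2880. Psmb9 was low in deficient replicate 6, at 40.6 CPM against 138 to 158. Socs1 was high in deficient replicate 5, at 24.6 CPM against 12.1 to 12.6.

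Genes of the excluded surface markers also stood out. Cd3d was at 15.4 CPM and Cd5 at 0.331 CPM in sufficient replicate 2, against 0 and at most 0.0360 CPM in the other sufficient libraries. Cd5 was at 0.501 CPM in deficient replicate 8, and Itgam at 6.04 CPM and Trdc at 0.250 CPM in deficient replicate 7, each against 0 in the other deficient libraries.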

How the results depend on the processing

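No paired analysis was possible because replicate numbers run from 1 to 8 and no number is shared by the groups. Genes called higher and lower numbered 0 and 0 in the fit reported, 1 and 1 without a filter, and 193 and 125 with DESeq2. With 1 library left out, 0 were higher and 0 to 2 lower, the 2 without replicate 6. Zbtb46 passed with DESeq2 (log2 fold -4.30), and Ltb as well (adjusted p 0.0309). With 1 library left out, log2 folds ranged from 1.31 to 2.81 for Ncr1, -0.47 to 0.060 for Klrb1c, -0.18 to 0.36 for Klrk1, -2.20 to -0.06 for Gzmb, 1.21 to 3.62 for Ccl5, -5.08 to -3.66 for Zbtb46, -0.40 to -0.05 for Hcst, -0.21 to 0.63 for Stx11, -0.020 to 0.37 for Srgn, -0.44 to 0.53 for Ccr6, -0.023 to 0.17 for Il7r and -1.40 to 1.09 for Cd3g. Differences in mean CPM ranged from -0.774 to 2.99 for Tbx21 and -0.00983 to 5.70 for Ifng. Without sufficient replicate 1 and deficient replicate 6, these changed sign: Klrk1 (-0.039), Hcst (0.015), Stx11 (-0.14), Ccr6 (-0.35), Il7r (-0.033) and Cd3g (0.36). With limma-voom Stx11 (-0.17), Ccr6 (-0.22), Il7r (-0.0050) and Cd3g (4.15) did, Ncr1 was at 3.45 and Gzmb at -2.90. Of 584 alternative values of 39 log2 folds, 560 kept their direction and side of the threshold, 22 changed sign and 2 passed it. As 0 genes passed in the fit reported, a value could change side only by passing. The alternatives reuse the same libraries, so these counts do not measure reproducibility. The causes of the sign changes and of the 2 passes were not tested. With 3 counts or fewer in every library, nothing can be said of a difference in Eomes.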
